A study of Mus musculus with 24 samples.

Results

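The 421 accessible chromatin regions described here were those with at least 3-fold more counts in the mouse strain DBA than in the strain BL6. They were chosen from the peak table of a single-nucleus ATAC-seq experiment on the amygdala. Counts were summed over all cell types of a library and scaled to a total of 1000000 (counts per 1000000, CPM). A peak on chromosomes 1 to 19 was taken when each strain had at least 1 count, the mean DBA CPM was at least 1, and the lower DBA library held at least 3 times the CPM of the higher BL6 library. Of 271433 peaks in the table, 266399 lay on these chromosomes and 168729 met the count and CPM minimums, so the set made up 0.250% of those that could have been taken. The strain difference itself chose the peaks, so it is given as a description. edgeR's strain test with an adjusted p under 0.05 called all 421 higher in DBA, where 3.21% of all peaks in the table were called higher and 3.23% lower, and nothing is read from that count.

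The tissue was microdissected amygdala of adult male DBA and BL6 mice aged 10 to 16 weeks, untreated as far as the labels say. Each strain had 2 ATAC libraries and 2 separate RNA libraries, and each library pooled tissue of about 2 animals. The RNA nuclei were sorted to 75% neurons and 25% other cells. Nothing states that same-numbered libraries of the strains or assays shared animals, so p-values measure the spread between pools.

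ATAC-seq uses a transposase that inserts adapters where DNA is not wrapped in nucleosomes, so counts pile up at promoters, enhancers and other sites held open by bound proteins. Inbred strains differ at fixed sequence variants, and a variant in a bound site can alter its accessibility. Copies of a repeated sequence also differ in number between strains, and counts from copies that a genome assembly does not hold separately fall on the copies it does hold. The amygdala, known for its part in fear and reward learning, holds excitatory glutamatergic neurons, several kinds of inhibitory GABAergic neurons, and glia.

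ATAC libraries held 80428902 and 66535381 counts in DBA and 72453812 and 86927891 counts in BL6, and RNA libraries held 32133813 and 50637086 counts in DBA and 66304405 and 30693629 in BL6. The authors' names of the neuronal classes went with the inhibitory markers. Peaks near Gad1, Gad2 and Slc32a1 summed to 99.4 to 103 CPM in inhibitory neurons, against 10.4 to 14.2 CPM in excitatory neurons. Non-neuronal nuclei gave few ATAC counts, with 1469186 and 1600375 in the DBA libraries, against 1222826 and 1847735 in the BL6 libraries.

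Promoters were a small part of the set. A window of 250 bases before to 50 bases after a RefSeq gene start was touched by 16 of the 421 peaks (3.80%). The share was 7.60% of all peaks that met the minimums. It was also 3.80% (20 peaks) of the 526 peaks chosen by the opposite rule, at least 3-fold higher in BL6. These 16 peaks touched windows of 15 genes, of which 5 carry established gene names. They are shown because they are the places where a strain-high peak overlaps the start window of a named gene. The Rnaset2b peak ends 6 bases before the gene, while the other 4 cover the gene start. Prss41 encodes a membrane serine protease, Cd244a an immune receptor of the SLAM family, Tlr6 a Toll-like receptor for bacterial lipopeptides, Acsm3 a mitochondrial medium-chain acyl-CoA synthetase, and Rnaset2b a lysosomal ribonuclease. The sequences are RefSeq's on GRCm38.p6, written 5′ to 3′ on the strand of the gene, and capitals mark the bases under the peak. The windows lie at chr17:23844107-23844406 on the minus strand for Prss41, chr1:171558943-171559242 on the plus strand for Cd244a, chr5:64959999-64960298 on the minus strand for Tlr6, chr7:119760673-119760972 on the plus strand for Acsm3 and chr17:6978610-6978909 on the plus strand for Rnaset2b.
Prss41: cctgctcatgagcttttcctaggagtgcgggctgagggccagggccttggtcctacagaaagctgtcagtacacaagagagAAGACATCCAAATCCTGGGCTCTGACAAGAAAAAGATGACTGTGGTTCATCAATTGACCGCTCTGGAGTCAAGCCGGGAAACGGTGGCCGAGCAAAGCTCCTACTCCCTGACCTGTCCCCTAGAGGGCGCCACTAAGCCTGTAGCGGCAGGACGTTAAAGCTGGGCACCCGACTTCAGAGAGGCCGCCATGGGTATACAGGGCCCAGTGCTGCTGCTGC
Cd244a: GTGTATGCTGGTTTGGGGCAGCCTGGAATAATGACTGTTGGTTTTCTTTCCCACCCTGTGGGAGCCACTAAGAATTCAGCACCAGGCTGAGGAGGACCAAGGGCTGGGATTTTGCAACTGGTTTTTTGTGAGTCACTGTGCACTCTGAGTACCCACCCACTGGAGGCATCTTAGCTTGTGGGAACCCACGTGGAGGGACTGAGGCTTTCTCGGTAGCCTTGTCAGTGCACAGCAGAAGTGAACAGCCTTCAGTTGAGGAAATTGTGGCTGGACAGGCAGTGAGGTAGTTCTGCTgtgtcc
Tlr6: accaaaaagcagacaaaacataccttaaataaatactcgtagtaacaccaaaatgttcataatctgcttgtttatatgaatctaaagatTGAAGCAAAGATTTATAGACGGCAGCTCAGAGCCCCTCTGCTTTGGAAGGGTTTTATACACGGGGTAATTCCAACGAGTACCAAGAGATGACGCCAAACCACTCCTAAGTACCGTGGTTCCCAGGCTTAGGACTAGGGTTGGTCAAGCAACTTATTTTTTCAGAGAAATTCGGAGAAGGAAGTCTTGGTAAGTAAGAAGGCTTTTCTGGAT
Acsm3: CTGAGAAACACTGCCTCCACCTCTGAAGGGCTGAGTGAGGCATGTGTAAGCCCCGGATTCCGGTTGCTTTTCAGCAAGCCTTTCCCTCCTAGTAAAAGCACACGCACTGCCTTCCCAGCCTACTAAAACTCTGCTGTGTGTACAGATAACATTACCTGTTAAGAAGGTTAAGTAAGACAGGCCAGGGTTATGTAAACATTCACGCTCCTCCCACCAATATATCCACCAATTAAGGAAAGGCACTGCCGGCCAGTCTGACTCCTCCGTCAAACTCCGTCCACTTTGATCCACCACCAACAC
Rnaset2b: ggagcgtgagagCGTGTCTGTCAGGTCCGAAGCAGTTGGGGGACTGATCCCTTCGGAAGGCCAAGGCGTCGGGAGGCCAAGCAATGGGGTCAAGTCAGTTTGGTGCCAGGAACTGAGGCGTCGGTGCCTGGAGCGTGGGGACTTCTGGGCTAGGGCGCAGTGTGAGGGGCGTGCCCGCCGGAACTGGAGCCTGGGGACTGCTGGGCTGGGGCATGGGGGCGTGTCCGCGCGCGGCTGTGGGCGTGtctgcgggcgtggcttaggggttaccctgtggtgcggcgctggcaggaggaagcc

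The peak covered 219 of the 300 bases for Prss41, 294 for Cd244a, 211 for Tlr6, 300 for Acsm3 and 233 for Rnaset2b. Over Prss41 the peak had 7.27 and 7.91 CPM in DBA, against 1.70 and 1.65 CPM in BL6. Over Cd244a it had 5.10 and 5.77 CPM in DBA, against 0.635 and 0.702 CPM in BL6, and over Tlr6 3.56 and 4.03 CPM in DBA, against 0.483 and 0.334 CPM in BL6. Acsm3 had 2.81 and 2.25 CPM in DBA, against 0.649 and 0.679 CPM in BL6, and Rnaset2b had 2.64 and 2.31 CPM in DBA, against 0.552 and 0.541 CPM in BL6. Both DBA libraries were above both BL6 libraries at every one, as the choice of the peaks required. Short motifs were looked for on both strands in the promoter windows of genes with a peak of the set within 2 kb of an end, of which 55 of 98 were in the promoter table. TGANTCA, which the AP-1 factors bind, was in 8 of the 55 (14.6%), against 7.99% of all 25748 promoters of the sequence table, which covered chromosomes 1 to 17 and 19. CACGTG, an E-box, was in 6 (10.9%), against 7.23%, and CAGCTG, another E-box, in 7 (12.7%), against 16.2%. TGACGTC, a cyclic AMP response element, was in 2 (3.64%), against 3.38%, and GTTGCCA, a motif of the RFX factors, in 0, against 4.52%. The Cd244a window held 1 match each of TGANTCA and CACGTG, and none of the motifs matched in the other windows printed. The median GC content was 51.7% in the 55 promoters and 53.0% in all.

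Most peaks of the set were small. Their mean DBA level ran from 1.00 to 634 CPM with a median of 2.65 CPM, while the mean BL6 level had a median of 0.498 CPM. The mean DBA CPM was under 2 for 150 peaks and 10 or more for 32. The ratio of the lower DBA to the higher BL6 library ran from 3.0003 to 35.1 with a median of 4.03; it was under 4 for 208 peaks and 10 or more for 36. The counts behind a peak ran from 148 to 94704 over the DBA libraries and from 9 to 18064 over the BL6 libraries, and 14 peaks had no counts in 1 BL6 library. The ratio of DBA library 2 to DBA library 3 had a median of 0.979 over the set, between 0.495 and 1.75. In all, the set held 3364 and 3109 CPM in the DBA libraries, against 566 and 564 CPM in the BL6 libraries.

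**Figure D1:**
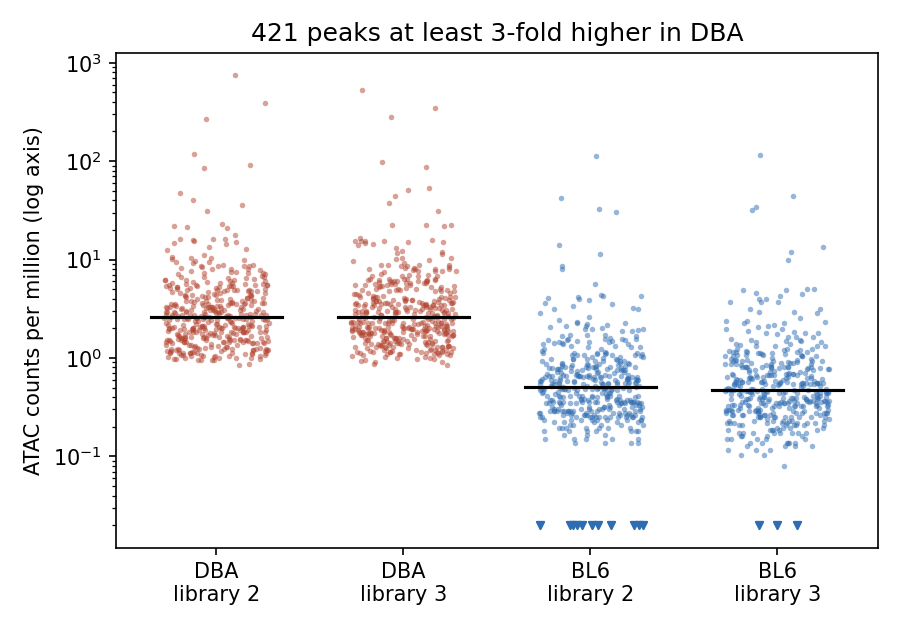
ATAC CPM (log axis) of the 421 peaks in each library, with 1 point a peak and the median as a bar; triangles at the foot mark peaks with no counts. Most points lie above 1 CPM in the DBA libraries and below 1 CPM in the BL6 libraries, and 3 peaks stand far above the rest in DBA.

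Peaks next to the limit differed little from those left out. Just inside it, chr7:100048687-100050021 had 8.63 and 8.82 CPM in DBA, against 2.62 and 2.88 CPM in BL6 (ratio 3.0003). The next were chr16:58273295-58274193 with a ratio of 3.01 and chr6:8005329-8005954 in Col28a1 with 3.02. Just outside were chr11:59249154-59250171 at Wnt3a with 2.98, chr14:51225460-51225877 with 2.99 and chr8:30381368-30381675 with 2.995.

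A few peaks carried much of the signal. The 4 with the highest DBA level held 42.8% of the set's summed DBA CPM, and the 8 highest held 50.6%. The highest, chr19:61266135-61267315, lies outside genes, and had 742 and 527 CPM in DBA, against 112 and 115 CPM in BL6. chr3:62158948-62159543, also outside genes, had 92.1 and 53.7 CPM in DBA, against 11.3 and 11.8 CPM in BL6. The DBA libraries of both peaks lay well apart from each other, with library 2 higher. chr2:98664840-98665198, outside genes too, had 40.0 and 44.7 CPM in DBA, against 7.98 and 4.94 CPM in BL6.

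The other 5 of the 8 highest lay on Sfi1 or Pisd pseudogenes and on a long noncoding RNA gene. chr11:3192711-3193843 inside Sfi1, a gene for a centriole protein, had 392 and 350 CPM in DBA, against 32.5 and 33.9 CPM in BL6. chr11:3122872-3124175 at Pisd-ps1, a pseudogene of the mitochondrial phosphatidylserine decarboxylase Pisd, had 117 and 97.2 CPM in DBA, against 30.2 and 31.9 CPM in BL6. chr11:3144037-3145151 inside Sfi1 had 47.3 and 50.8 CPM in DBA, against 2.30 and 2.36 CPM in BL6. chr17:3081299-3083318 at Pisd-ps2, another such pseudogene, had 85.0 and 86.8 CPM in DBA, against 13.9 and 13.4 CPM in BL6. chr6:47647770-47651583 spanned the start of Gm40371, and had 267 and 280 CPM in DBA, against 41.9 and 44.6 CPM in BL6. The BL6 libraries were close together at each of these 5, and the ratio between the DBA libraries was largest at the Pisd-ps1 peak. Sfi1 and the Pisd pseudogenes have near-identical copies, so which copy the counts came from is uncertain.

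The largest ratios among peaks with at least 2 CPM in DBA were found over the same repeated locus, an immune gene cluster and gene models with provisional names. chr11:3132640-3133105, at the facing ends of Pisd-ps1 and Sfi1, had the largest, with 20.8 and 22.4 CPM in DBA, against 0.593 and 0.518 CPM in BL6 (ratio 35.1). chr1:85590963-85593335 lies where Sp110 and Sp140, nuclear body genes of immune cells, overlap, and had 5.97 and 6.403 CPM in DBA, against 0.152 and 0.173 CPM in BL6 (34.6). The DBA libraries there held 480 and 426 counts, against 11 and 15 counts in the BL6 libraries. Over Gm10222 the peak chr1:24612283-24612814 had 693 and 768 counts in DBA, against 0 and 25 in BL6 (30.0). Peaks at Gm4012, Gm6040 and near Chchd5 had ratios of 22.4, 21.9 and 21.3, and 2 more inside Sfi1 had 23.1 and 20.1.

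Many peaks of the set stood next to each other. With a gap of at most 10 kb, 71 of the 421 (16.9%) fell into 15 runs, and 350 stood alone. In the longest run, over Pisd-ps1, Sfi1, Gm33862 and Gm11400 at chr11:3122872-3179684, every 1 of the 21 peaks in the table was in the set. Its peaks summed to 385 and 390 CPM in DBA, against 60.4 and 61.3 CPM in BL6, with ratios of 3.05 to 35.1 from peak to peak. The ratio was lowest at the first peak, at Pisd-ps1, and largest where Pisd-ps1 and Sfi1 meet.

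A second long run covered immune genes. At chr1:171514733-171568871, 18 of 19 peaks were in the set, over Itln1, which encodes the carbohydrate-binding lectin intelectin, and the first part of Cd244a. They summed to 49.6 and 59.0 CPM in DBA, against 8.96 and 9.28 CPM in BL6, with ratios of 3.07 to 15.02. The 1 peak left out had a fold of strain means of 2.64. A further peak inside Cd244a, chr1:171578962-171579302, was beyond the 10 kb gap and had 1.11 and 1.40 CPM in DBA, against 0.304 and 0.265 CPM in BL6. Most peaks of this run were low, with mean DBA levels of 1.33 to 8.74 CPM.

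Shorter runs lay over E330020D12Rik, Gm40371 and Pisd-ps2. At E330020D12Rik, 4 of 5 peaks were in the set, summing to 19.1 and 21.6 CPM in DBA, against 5.22 and 4.87 CPM in BL6. The runs at Gm40371 and Pisd-ps2 had 3 peaks each, all in the set. So had 2 runs outside genes. The run at chr18:3008408-3010868 summed to 10.5 and 13.5 CPM in DBA, against 0.870 and 0.805 CPM in BL6, and the run at chr8:20995898-21009117 to 8.57 and 9.03 CPM in DBA, against 0.552 and 0.748 CPM in BL6. Beside peaks of the set, whether alone or in runs, the difference was often small. The 447 neighbouring peaks that met the minimums but were not in the set had a median fold of 1.04, against 0.992 for all peaks not in the set. Both groups leave out the peaks that met the limit, which lowers their folds. A fold of 2 or more was seen in 46 of these neighbours (10.3%), against 0.753% of all peaks outside the set.

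**Figure D2:**
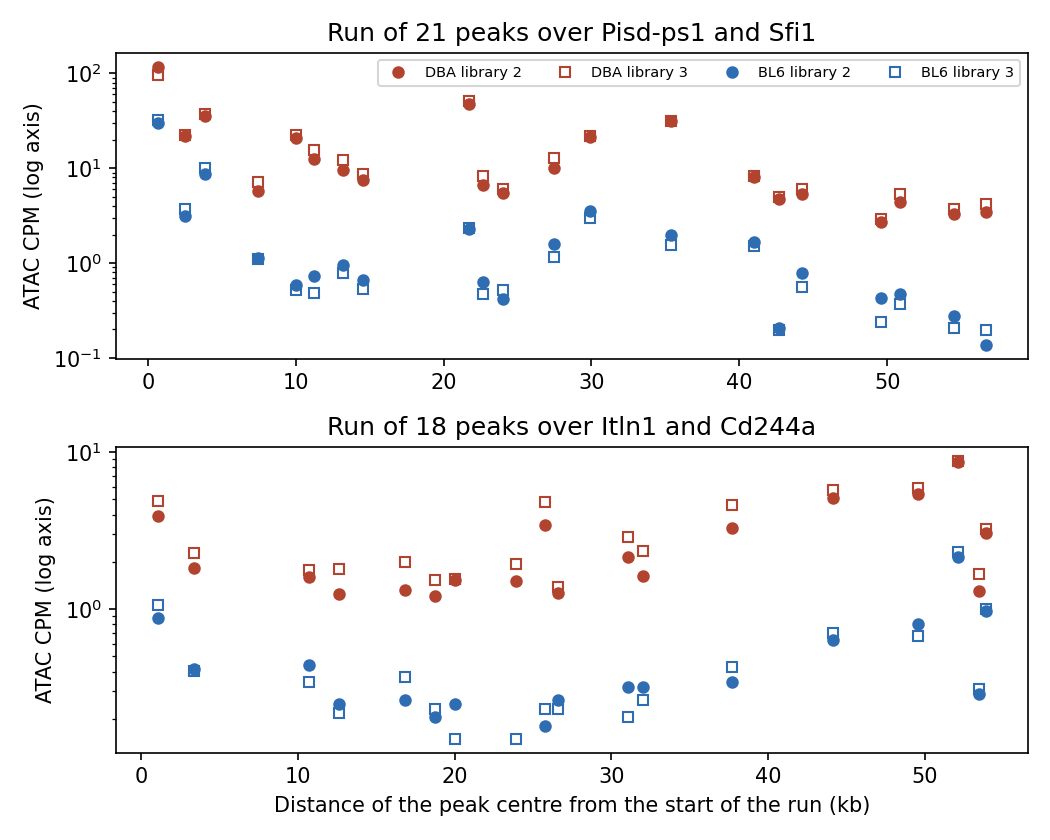
ATAC CPM (log axis) of each peak in the 2 longest runs, against the distance of its centre from the start of the run in kb; filled circles are library 2 and open squares library 3 of each strain, and libraries with no counts are not drawn. At every peak both DBA libraries lie above both BL6 libraries, and the gap varies along each run.

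More of the set lay outside annotated genes than of peaks in general. Of the 421, 99 (23.5%) were within 2 kb of an end of a RefSeq gene, 138 (32.8%) lay deeper inside a gene, and 184 (43.7%) lay outside. The shares over all peaks that met the minimums were 20.9%, 50.1% and 29.0%. The 526 peaks chosen by the opposite rule, at least 3-fold higher in BL6, had 20.3%, 37.3% and 42.4%, so a large share outside genes was seen in both directions. Within 10 kb of a gene end, inside or outside, lay 237 peaks of the set (56.3%), against 45.8% of all and 46.2% of the BL6-high peaks. The median width of the set was 498 bases, against 645 for all and 551 for the BL6-high peaks. By chromosome, the set made up between 0.0665% of the peaks on chromosome 10 (6 peaks) and 0.403% on chromosome 17 (26 peaks), with 0.402% on chromosome 1 (52 peaks).

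No peak of the set was found inside or within 2 kb of 24 glutamate receptor genes, 13 neuropeptide genes, 10 dopamine, opioid and cannabinoid receptor genes, or 17 genes known for variants between DBA and BL6 mice, which are groups that amygdala neurons or these strains are known for.

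In sums over the set the difference was present in each class of nuclei, as part of the same counts that chose the peaks. A few high peaks weigh much in such sums, since the 4 highest held 42.8% of the summed DBA CPM over all nuclei. The set summed to 3301 and 3050 CPM in DBA inhibitory neurons, against 573 and 577 CPM in BL6. In excitatory neurons it summed to 3412 and 3143 CPM in DBA, against 559 and 551 CPM in BL6, and in non-neuronal nuclei to 3567 and 3369 CPM in DBA, against 684 and 674 CPM in BL6. Taken alone, inhibitory neurons met the 3-fold ratio at 290 of the 421 peaks, excitatory neurons at 350 and non-neuronal nuclei at 182. The DBA libraries were above the BL6 libraries at 405, 420 and 241 peaks in these classes, while 15 peaks had no non-neuronal counts. The shares over all peaks in these classes are not given here, and nothing is read from these numbers of peaks. Excitatory neurons gave more counts, so the rule weighs them more.

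Among the 18 cell types with at least 100000 ATAC counts in each library, the summed level of the set was highest in microglia, the immune cells of the brain. The set summed to 5023 and 5092 CPM in DBA microglia, against 1027 and 952 CPM in BL6 microglia, from 286905 and 486088 counts in DBA, against 259050 and 460923 counts in BL6. Of the other types the highest was Exc-Tfap2c in DBA, with 4080 and 3418 CPM, and Inh-Lypd6b in BL6, with 732 and 712 CPM. Ranked by mean DBA CPM, 55 peaks were highest in microglia, followed by 47 in the excitatory type Exc-Vwa5b1 and 36 in Exc-Tafa1. The ranks of microglia rest on few counts.

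Whether a peak was more open in inhibitory or in excitatory neurons was not part of the rule and was tested with edgeR's quasi-likelihood test across the whole table, with the library as a block and an adjusted p under 0.05 as the call. Of the 421 peaks 410 passed the filter on low counts. Among all peaks tested, 29.5% of peaks were higher and 31.3% lower in inhibitory than in excitatory neurons; of the set 95 were higher (23.2%) and 106 lower (25.9%). The median log2 difference was -0.02 in the set, against 0.02 over all peaks tested. Calls in the set went to both classes in near-equal numbers.

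Single peaks of the set were strongly tied to a class in both strains. chr11:71512077-71513233, outside genes, was higher in inhibitory neurons. It had 18.95 and 18.5 CPM in DBA and 7.27 and 6.14 CPM in BL6 inhibitory neurons, against 3.51 and 3.78 CPM in DBA and 1.03 and 0.989 CPM in BL6 excitatory neurons, a log2 difference of 2.56 ± 0.10 (SE; adjusted p = 5.94e-22, edgeR). chr16:58273295-58274193 was higher in them by 2.90 ± 0.19 (adjusted p = 2.30e-15, edgeR). Smaller excesses in inhibitory neurons, of 0.45 and 0.34, were called at the high peaks chr3:62158948-62159543 and chr11:3122872-3124175.

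Other peaks were higher in excitatory neurons. Inside Sfi1, chr11:3144037-3145151 had 18.2 and 23.1 CPM in DBA and 1.21 and 1.26 CPM in BL6 inhibitory neurons, against 73.4 and 73.3 CPM in DBA and 2.98 and 3.21 CPM in BL6 excitatory neurons. Its log2 difference was -1.72 ± 0.07 (SE; adjusted p = 7.47e-17, edgeR). In DBA it reached 112 CPM in Exc-Tafa1, against 13.9 to 38.5 CPM in the inhibitory types. chr7:25902016-25902713 inside Cyp2b10, a gene of the cytochrome P450 family, differed by -2.70 ± 0.20 and chr1:171912864-171913455 by -2.27 ± 0.18. chr14:72237646-72238737 differed by -1.67 ± 0.12, and all of these were called.

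Fewer peaks were called between non-neuronal and neuronal nuclei, where 386 of the 421 peaks passed the filter. Among all peaks tested, 8.17% of peaks were higher and 9.55% lower in non-neuronal nuclei; in the set 32 were higher (8.29%) and 16 lower (4.15%). The median log2 difference was -0.34 in the set, against -0.49 over all peaks. At E330020D12Rik the peak chr1:153414044-153415555 had 45.6 and 54.4 CPM in DBA and 3.27 and 9.74 CPM in BL6 non-neuronal nuclei, against 9.74 and 10.9 CPM in DBA and 2.88 and 2.75 CPM in BL6 neurons. The log2 difference was 2.08 ± 0.21 (SE; adjusted p = 9.23e-22, edgeR), and its mean DBA level was 123 CPM in microglia. chr2:98664840-98665198 was higher by 1.60 ± 0.14, chr9:24541914-24542240 near Dpy19l2 by 2.31 ± 0.25 and chr5:110057229-110058446 by 1.80 ± 0.19.

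The peaks called lower in non-neuronal nuclei included peaks inside Sv2c, Atp9a and Sfi1. chr13:96023324-96024533 lies inside Sv2c, which encodes a synaptic vesicle glycoprotein, and had 6.13 and 3.12 CPM in DBA and 0.818 and 1.62 CPM in BL6 non-neuronal nuclei, against 16.2 and 15.2 CPM in DBA and 4.21 and 4.28 CPM in BL6 neurons. Its log2 difference was -1.69 ± 0.35 (SE; adjusted p = 3.27e-05, edgeR). chr2:168681478-168681798 inside Atp9a, a lipid flippase gene, differed by -2.18 ± 0.48, chr2:100857267-100858107 by -2.51 ± 0.64 and the Sfi1 peak chr11:3144037-3145151 by -0.80 ± 0.21. Without DBA library 3 the calls at the last 2 were lost, with adjusted p-values of 0.0750 and 0.0644 (edgeR). The count called higher in non-neuronal nuclei was 16 without DBA library 3 and 21 without BL6 library 3, and the count called lower was 9 without DBA library 2 and 5 without DBA library 3.

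The strain difference itself was compared between inhibitory and excitatory neurons by the interaction of strain with class in edgeR. Among all peaks tested, 0.118% of peaks had a larger DBA minus BL6 difference in inhibitory neurons and 0.129% a smaller one. In the set 3 peaks had a larger (0.713%) and 22 a smaller (5.23%) difference in inhibitory neurons, of 421 tested, and the median log2 value was -0.12. Of the 526 BL6-high peaks, 34 were called in the positive and 5 in the negative direction, which for those peaks also is a smaller strain difference in inhibitory neurons. The peaks were chosen for their strain difference in counts to which excitatory neurons contributed most, and the part of that choice in these counts was not tested. Leaving out BL6 library 2 gave 12 smaller differences and leaving out BL6 library 3 gave 10, while the larger ones numbered 7 without DBA library 3 and 1 without BL6 library 3.

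At several of the 22 the strains overlapped in inhibitory neurons, among them chr7:119034824-119035197, chr6:109325771-109326203 and the peak given next. chr1:33286480-33286835 had 0.244 and 0.423 CPM in DBA inhibitory neurons, against 0.313 and 0.493 CPM in BL6 inhibitory neurons. In excitatory neurons it had 4.46 and 4.79 CPM in DBA, against 0.570 and 0.371 CPM in BL6, and the interaction was -3.68 ± 0.53 (SE; adjusted p = 4.38e-05, edgeR). The strains overlapped in inhibitory neurons and were far apart in excitatory neurons, although without BL6 library 3 its adjusted p was 0.107 (edgeR). At chr3:86933170-86933947 the strains stood apart in both classes, with 3.91 and 3.21 CPM in DBA inhibitory neurons, against 0.899 and 0.987 CPM in BL6 ones, and 9.38 and 9.05 CPM in DBA excitatory neurons, against 0.482 and 0.577 CPM in BL6 ones, with an interaction of -2.20 ± 0.32.

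At others the peak was open in inhibitory neurons of both strains. The peak chr5:76836375-76837332 in Cracd, which encodes a capping protein inhibitor that acts on actin, had 19.7 and 20.97 CPM in DBA inhibitory neurons, against 9.03 and 8.96 CPM in BL6 ones. In excitatory neurons it had 11.4 and 11.1 CPM in DBA, against 1.56 and 1.81 CPM in BL6, and the interaction was -1.57 ± 0.15 (SE; adjusted p = 3.03e-09, edgeR). chr5:110057229-110058446 had 17.3 and 15.7 CPM in DBA inhibitory neurons, against 6.22 and 7.15 CPM in BL6 ones, and 13.0 and 12.1 CPM in DBA excitatory neurons, against 1.51 and 1.77 CPM in BL6 ones, with an interaction of -1.64 ± 0.16. Its non-neuronal levels were 29.3 and 26.2 CPM in DBA, against 25.4 and 22.2 CPM in BL6.

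Of the 22, 7 lay inside named genes besides Cracd, and these were listed after their values were seen. They are Sv2c (interaction -1.01), Psen2, a subunit of the gamma-secretase protease (-1.73), Gfra1, a receptor for the growth factor GDNF (-1.99), Syngr1, a synaptic vesicle protein (-2.17), Cpne4, a calcium-binding copine (-2.74), Gorab (-1.99) and Spata17 (-2.51). The 3 peaks with a larger difference in inhibitory neurons were chr4:34228115-34228405 (2.88), chr15:52419916-52420509 (2.28) and chr18:74127021-74127516 (1.70), none of them inside a gene. At chr4:34228115-34228405 the levels were 3.04 and 2.15 CPM in DBA inhibitory neurons, against 0.313 and 0.329 CPM in BL6 ones. In excitatory neurons they were 0.261 and 0.301 CPM in DBA, against 0.219 and 0.288 CPM in BL6, and these overlapped. Each of the 3 lost its call without at least 1 of the libraries.

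**Figure D3:**
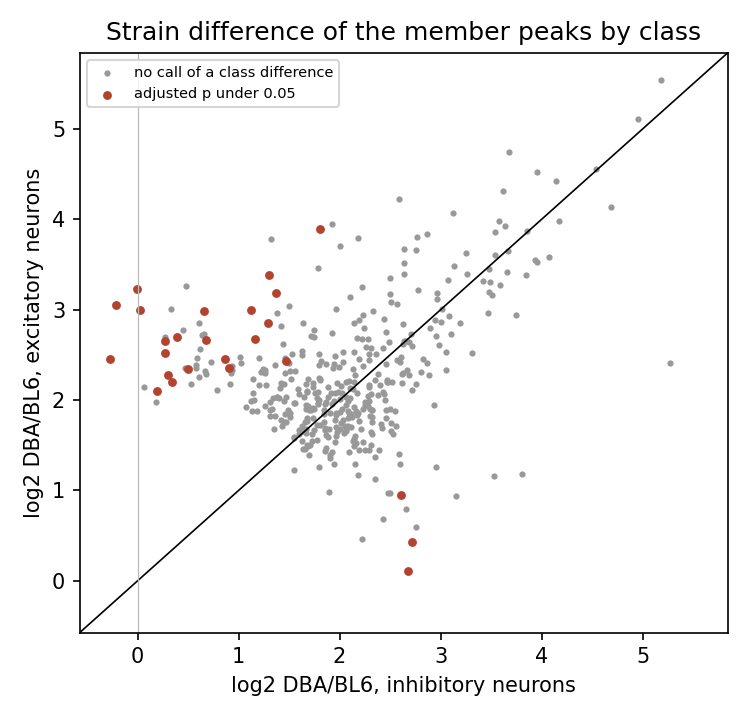
Log2 ratio of DBA to BL6 in excitatory neurons (y axis) against the same in inhibitory neurons (x axis) for the 421 peaks, from mean CPM with a pseudocount of 0.1; red points have an adjusted p under 0.05 in the interaction. The line marks equal differences: 22 red points lie above it and 3 below it, and the medians are 2.02 in inhibitory and 2.17 in excitatory neurons.

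RNA was measured in other libraries, which had no part in choosing the peaks. In sums over nuclei, fewer cells of a type and less RNA per cell cannot be told apart. A peak of the set lay inside or within 2 kb of an end of 228 RefSeq genes, of which 171 were in the RNA table and 139 had at least 10 counts in each strain. This minimum was set because 2200 genes had 100 or more counts in DBA and none in BL6, and 96 the reverse; 7 of these 2200 were genes of the set, Pisd-ps1 and Pisd-ps2 among them. Pisd-ps2 was listed with 207 and 239 CPM in DBA, against 0 and 0 CPM in BL6, and Pisd-ps1 with 24.6 and 21.6 CPM in DBA, against 0 and 0 CPM in BL6. Such a gene was not tested, since the strains may have been counted under different gene names.

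Several genes with a peak of the set had more RNA in DBA, the direction of the peak, and few had less. Over all genes tested, 1.71% were higher and 3.18% lower in DBA RNA of all nuclei (edgeR). Of 136 tested genes with a peak of the set 15 were higher (11.03%) and 3 lower (2.21%), with a median log2 difference of 0.06, against -0.01 over all. Of the 36 of these with a peak within 2 kb of an end, 8 were higher and 2 lower, with a median of 0.66. Without DBA library 2 or without DBA library 3, 9 genes were higher. Of 217 tested genes with a BL6-high peak, 3 were higher in DBA and 30 lower. The remaining 118 of the 136 genes were not called, so most genes with such a peak had no RNA difference that 2 libraries a strain could show.

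The neuronal classes gave similar counts. In inhibitory neurons 22 of 123 genes were higher (17.9%) and 3 lower (2.44%), against 3.24% and 5.38% of all genes. In excitatory neurons 19 of 122 were higher (15.6%) and 6 lower (4.92%), against 3.53% and 6.14% of all genes. Without BL6 library 2, 14 genes were higher in inhibitory neurons, and without DBA library 3, 3 were lower in excitatory neurons and 1 in inhibitory neurons.

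Sfi1, with 19 peaks of the set, had 421 and 391 CPM in DBA, against 43.8 and 63.9 CPM in BL6, a log2 difference of 2.97 ± 0.18 (SE; adjusted p = 0.000213, edgeR). DBA was higher in all 20 cell types with enough RNA, and most so in microglia, where Sfi1 had 3223 and 3157 CPM in DBA, against 97.7 and 153 CPM in BL6. In inhibitory neurons it had 306 and 330 CPM in DBA, against 44.2 and 63.8 CPM in BL6, and in excitatory neurons 315 and 312 CPM in DBA, against 42.3 and 59.6 CPM in BL6. As for the peaks, its near-identical copies leave the source of these counts uncertain.

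Prss41, whose start is under a peak of the set, had 6.29 and 4.72 CPM in DBA, against 0.181 and 0.130 CPM in BL6, a log2 difference of 5.09 ± 0.35 (SE; adjusted p = 0.000399, edgeR). DBA was higher in 16 of 20 cell types, with no overlap of libraries. Catsperg2, which encodes a subunit of the sperm calcium channel CatSper, had 7.97 and 11.02 CPM in DBA, against 0.679 and 0.456 CPM in BL6, a log2 difference of 4.05 ± 0.31 (adjusted p = 0.000629, edgeR). The peak at its end had 8.03 and 6.33 CPM in DBA, against 1.53 and 1.05 CPM in BL6. Catsperg2 has a near-identical neighbour, Catsperg1, so its counts are uncertain.

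Zfp951, a zinc finger gene of a large family with near copies, had 39.8 and 34.4 CPM in DBA, against 9.23 and 8.41 CPM in BL6, a log2 difference of 2.11 ± 0.14 (SE; adjusted p = 0.000344, edgeR). DBA was higher in 19 of 20 cell types. Its peak, 26003 bases from the nearer end, had 1.504 and 2.19 CPM in DBA, against 0.400 and 0.380 CPM in BL6. Fsip1, which encodes a fibrous sheath protein of sperm, had 13.4 and 16.0 CPM in DBA, against 4.93 and 4.40 CPM in BL6 (1.70 ± 0.18; adjusted p = 0.00279, edgeR). Its peak lies 222 bases beyond an end. Without any 1 of the libraries, Sfi1, Prss41, Catsperg2, Zfp951 and Fsip1 kept their calls.

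Glp1r, the receptor of glucagon-like peptide 1, held 2 peaks of the set. The larger, chr17:30911245-30912113, had 5.47 and 6.28 CPM in DBA, against 1.67 and 1.79 CPM in BL6. RNA of Glp1r was 6.16 and 23.0 CPM in DBA, against 0.784 and 0.717 CPM in BL6, a log2 difference of 4.32 ± 0.64 (SE; adjusted p = 0.0115, edgeR). DBA library 3 was far above DBA library 2 in RNA, and both were above the BL6 libraries. Without BL6 library 2 its adjusted p was 0.199 and without BL6 library 3 it was 0.127 (edgeR).

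Sv2c differed between strains in both assays, and by less in inhibitory neurons. Its peak had 23.2 and 22.5 CPM in DBA inhibitory neurons, against 8.72 and 7.59 CPM in BL6 ones, and 10.1 and 9.58 CPM in DBA excitatory neurons, against 1.69 and 1.79 CPM in BL6 ones. The RNA had 227 and 210 CPM in DBA inhibitory neurons, against 159 and 185 CPM in BL6 ones, a log2 difference of 0.37 ± 0.10 (SE; adjusted p = 0.0370, edgeR). In excitatory neurons the RNA had 105 and 76.7 CPM in DBA, against 37.0 and 36.2 CPM in BL6, a log2 difference of 1.33 ± 0.15 (adjusted p = 0.000126, edgeR). The difference between the RNA values of the classes was not tested. Over all nuclei the RNA had 149 and 129 CPM in DBA, against 84.7 and 77.5 CPM in BL6 (0.82 ± 0.11; adjusted p = 0.00855, edgeR), and without DBA library 2 its adjusted p was 0.0705 (edgeR).

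Col6a6, a collagen VI chain gene, had 3.83 and 2.65 CPM in DBA, against 1.27 and 1.14 CPM in BL6 (1.45 ± 0.29; adjusted p = 0.0385, edgeR). The RNA was higher in inhibitory neurons, with 6.30 and 4.10 CPM in DBA, against 1.24 and 1.18 CPM in BL6 (2.09 ± 0.31; adjusted p = 0.00116, edgeR). In excitatory neurons it had 1.74 and 1.68 CPM in DBA, against 1.54 and 1.40 CPM in BL6, and was not called. Its peak, chr9:105804759-105805334, had a mean DBA level of 12.2 CPM in Inh-Tshz1, its highest type. Psen2 (0.68 ± 0.14; adjusted p = 0.0456, edgeR), Rwdd3, a gene of the sumoylation pathway (0.68 ± 0.13; adjusted p = 0.0304, edgeR) and Plekha4 (1.13 ± 0.18; adjusted p = 0.0169, edgeR) were also higher in DBA. Col6a6 lost its call without any 1 of the 4 libraries, as did Psen2, while Plekha4 and Rwdd3 lost theirs without either DBA library.

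Siglec1 and C1qb, known from macrophages and microglia, differed in opposite directions in RNA of all nuclei. Siglec1, a sialic acid receptor of macrophages, had 1.84 and 1.66 CPM in DBA, against 0.121 and 0.228 CPM in BL6 (3.47 ± 0.40; adjusted p = 0.00411, edgeR). C1qb, a chain of the complement protein C1q, fell: it had 8.59 and 5.33 CPM in DBA, against 19.9 and 25.0 CPM in BL6 (-1.65 ± 0.24; adjusted p = 0.0109, edgeR). In microglia, its highest type, C1qb had 409 and 439 CPM in DBA, against 899 and 827 CPM in BL6. Microglia held 1.84% and 0.999% of the RNA counts in DBA, against 1.76% and 2.51% in BL6, and its part in the sums over all nuclei was not tested. The peak 1248 bases beyond an end of C1qb went the other way, with 5.77 and 6.16 CPM in DBA, against 1.56 and 1.79 CPM in BL6. Without DBA library 3 the adjusted p of C1qb was 0.0508 (edgeR).

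Rnaset2b and Ctsl, a lysosomal ribonuclease and the protease cathepsin L, were the other genes whose RNA was lower in DBA. Rnaset2b had 3.11 and 2.31 CPM in DBA, against 6.29 and 7.59 CPM in BL6 (-1.31 ± 0.24; adjusted p = 0.0257, edgeR), and Ctsl had 31.8 and 27.5 CPM in DBA, against 45.5 and 48.9 CPM in BL6 (-0.62 ± 0.11; adjusted p = 0.0282, edgeR). The peak just before the start of Rnaset2b was thus higher in DBA while RNA of the gene was lower. Rnaset2b has a near-identical copy, Rnaset2a, so its counts are uncertain. In microglia Ctsl had 52.4 and 87.0 CPM in DBA, against 232 and 213 CPM in BL6. Both genes lost their calls without either DBA library or without BL6 library 3.

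Genes of the 2 long runs and of the promoter windows varied in how far RNA followed the peaks. Cd244a had 0.778 and 0.612 CPM in DBA, against 0.302 and 0.358 CPM in BL6, a log2 difference of 1.12 ± 0.37 that was not called (adjusted p = 0.187, edgeR). Itln1 had at most 0.276 CPM in any library and was not tested. Tlr6 (0.90 ± 0.47; adjusted p = 0.437, edgeR) and Acsm3 (-0.82 ± 0.27; adjusted p = 0.185, edgeR) were not called. Sp110 and Sp140, under the peak with the ratio of 34.6, had log2 RNA differences of 0.10 ± 0.52 and -0.40 ± 0.29 and were not called, and their libraries overlapped for Sp110. E330020D12Rik had 28.6 and 15.7 CPM in DBA, against 9.15 and 14.1 CPM in BL6, and was not called over all nuclei (0.99 ± 0.31; adjusted p = 0.160, edgeR). In microglia, its highest type, it had 749 and 817 CPM in DBA, against 212 and 233 CPM in BL6, so both DBA libraries lay well above both BL6 libraries there.

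**Figure D4:**
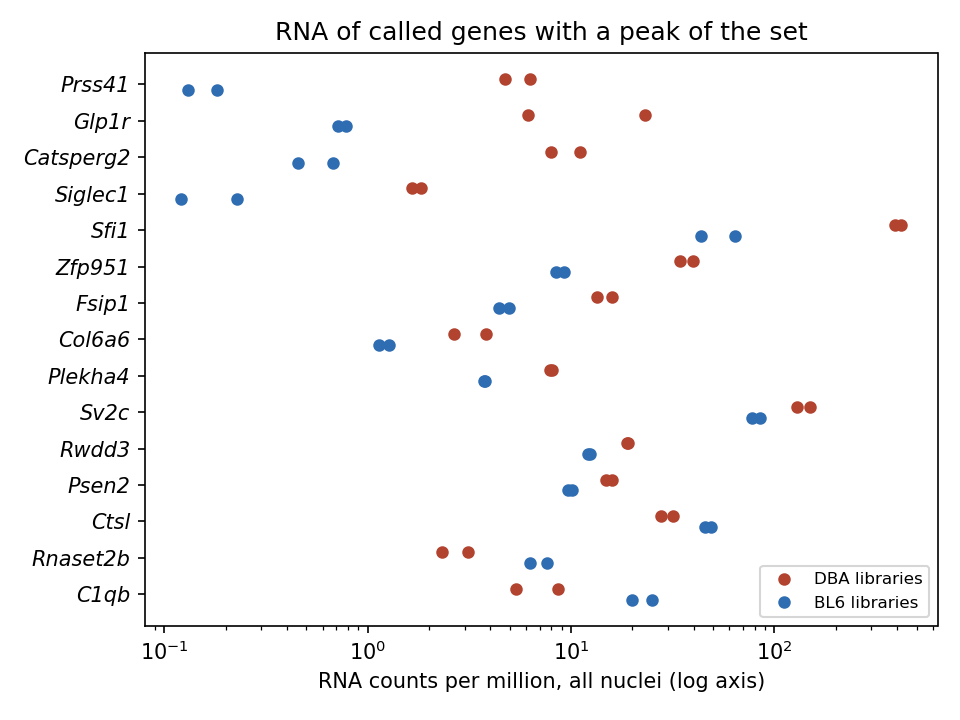
RNA CPM over all nuclei (log axis) of the 15 called genes with established names that have a peak of the set inside or within 2 kb of an end, with DBA libraries above BL6 libraries in each row. The libraries of the strains do not overlap for any of them: DBA is higher for 12 and lower for Ctsl, Rnaset2b and C1qb.

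Genes with provisional names that were called were counted but not followed further. Of the 15 genes called higher, 3 carry such names: 9030025P20Rik, Gm19784 and Gm7102. Strand use in counting is not given in the sources used here, so overlapping and antisense genes cannot be told apart. Of the 155 peaks of the set with a tested gene, 34 had a gene called higher in DBA, 19 of them through Sfi1, and 3 had a gene called lower.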

How the data were processed

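The authors deposited counts per ATAC peak and per gene, summed by them over the nuclei of 22 cell types in each library, and these counts were used as deposited. Per the submitters' processing notes, Cell Ranger ATAC 2.0.0, Cell Ranger 6.0.2, Seurat 4.0.5 and the genome build mm10, an assembly of a BL6 strain, were used. Filters on nuclei, the treatment of doublets, the peak caller, strand use and whether ATAC fragments or insertions were counted are not given in the sources used here. Cell type names are the authors', and doublets could not be sought in sums over nuclei. Libraries are numbered 2 and 3 in the count tables but 1 and 2 in the sample titles; the table's numbers are used, column names give strain and assay, and no library was matched to a title. The files with nuclei per library were not used. The 16 methylation samples were not analysed here.

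CPM used total counts per library. Tests were edgeR 4.0.16 robust quasi-likelihood tests (R 4.3.3) after TMM scaling and filterByExpr, fitted on the whole table with Benjamini-Hochberg adjustment over all features; the call was an adjusted p under 0.05. RNA tests took genes with 10 or more counts in each strain. Class tests had the library as a block. DESeq2 1.42.0 was an alternative. On simulated data, 4-fold changes were recovered for 97 of 100 peaks in the strain test and 96 between neuronal classes. The interaction recovered 77, the test of non-neuronal nuclei 43, and RNA of all nuclei 96 of 100 genes. Of 100 2-fold changes, these tests recovered 69, 82, 17, 6 and 81 in this order. False calls made up at most 8.29% of calls, in RNA of all nuclei. Every feature was simulated with the same spread between libraries, so recovery at features with more spread was not tested. The correlation of same-numbered libraries' deviations was -0.07 for ATAC and -0.42 for RNA. With 2 libraries a strain this cannot decide whether the numbers pair the samples, and the strain tests did not pair them.

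Coordinates are those of the peak table. Gene places came from RefSeq on GRCm38.p6, whose gene table has no strand. The set and the lists were chosen with earlier results of these data known. Named were the 8 peaks highest in DBA, the 8 with the largest ratio at 2 CPM or more, up to 4 called each way per class test, the 5 longest runs and the 2 tied with the last of them, 3 peaks on each side of the limit, and genes called in all nuclei, up to 12 each way with a peak within 2 kb of an end and up to 8 each way with one inside. Called genes with provisional names were passed over, while the longest runs keep such names. No genome was used, so peaks outside promoter windows have no sequence here. Some results of the marker and gene lists are not reported here.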

Additional observations from a re-analysis of the deposited data

Results flagged for a closer look

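The strain difference was itself called different between inhibitory and excitatory neurons at 25 peaks of the set, and the 7 given here had the smallest p-values, up to 4 each way. The interaction, the DBA minus BL6 log2 difference in inhibitory neurons minus that in excitatory neurons, was 2.88 at chr4:34228115-34228405, 2.28 at chr15:52419916-52420509 and 1.70 at chr18:74127021-74127516. It was -1.57 at chr5:76836375-76837332 in Cracd, -1.64 at chr5:110057229-110058446, -3.68 at chr1:33286480-33286835 and -2.20 at chr3:86933170-86933947. All are from edgeR's test of the difference. The same ATAC counts chose the peaks by their strain difference, and excitatory neurons contributed most of them. The part of that choice in these calls was not tested.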

How the results depend on the processing

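The set held 1131 peaks at a 2-fold limit, 213 at 4-fold, 128 at 5-fold and 271 at a mean DBA CPM of 2 or more, against 421; leaving out each library in turn gave 492 to 556. TMM or RLE scaling gave 457 each, with 419 of the 421 kept.

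Leaving out 1 library in turn, the ATAC strain test called 4291 to 10372 peaks higher and 4399 to 9485 lower in the whole table, and DESeq2 called 3619 and 3524. Over the set, the same settings gave 65 to 94 peaks higher and 74 to 115 lower in inhibitory than in excitatory neurons. For non-neuronal against neuronal nuclei they gave 15102 to 22687 higher and 12583 to 17948 lower in the whole table, and 16 to 32 higher and 5 to 13 lower in the set. DESeq2 called 15389 lower there, 9 of them in the set. For the interaction they gave 126 to 464 larger and 115 to 768 smaller in the table, and 1 to 7 and 10 to 32 in the set. For RNA of all nuclei they gave 123 to 393 genes higher and 277 to 801 lower in the table, and 9 to 13 and 0 to 3 among genes with a peak of the set. In excitatory neurons these were 16 to 20 and 3 to 7, and in inhibitory neurons 14 to 16 and 1 to 4.

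With every gene of the table, 4633 genes were higher and 1440 lower in all nuclei, 34 and 6 of them with a peak of the set. In excitatory neurons 3491 were higher, with 32 higher and 12 lower among genes of the set, and in inhibitory neurons 3636 were higher, with 7 genes of the set lower. DESeq2 called 5 genes of the set lower in all nuclei, and in excitatory neurons 426 genes higher, with 3 genes of the set lower.

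Same-numbered libraries share a number and nothing states more. In the class tests without the library as a block, 4 peaks of the set were higher and 4 lower in inhibitory neurons. For non-neuronal nuclei both counts were then 0 (42450 lower in the table). With the library number as a block (a replicate block), RNA of all nuclei gave 137 higher and 322 lower genes, 9 and 0 of them with a peak of the set. A crossed replicate block, chosen after seeing the data, gave 1014 and 1809, with 32 and 8 in the set, and 10 lower in excitatory neurons. The cause of these changes was not tested.

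No result turned its direction. Among values of single named peaks and genes under these settings, 324 stayed on their side of the threshold, 54 lost the call and 2 gained it. Of the counts and set sizes, 215 stayed within 1.5 times the reported value and 65 moved further. Within 10 kb of a gene end lay 237 peaks. With 2 pools a strain, 43 of 100 simulated 4-fold changes were recovered for non-neuronal nuclei, so uncalled peaks there say little.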

Other observations

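Peaks on the sex chromosomes were outside the rule. On the X chromosome 6 of 4946 peaks would have met it otherwise, and 2 met the opposite rule. On the Y chromosome these were 8 and 7 of 41, and on unplaced scaffolds 0 of 47 met either.

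Among single peaks of the set with established gene names, chosen after their values were seen, the peak chr13:23400711-23402572 over the transfer RNA genes n-TAagc12 and n-TVaac2 had 22.7 and 22.6 CPM in DBA, against 5.64 and 5.004 CPM in BL6. chr12:16656875-16657869 in Ntsr2, the neurotensin receptor of astrocytes, had 9.52 and 10.4 CPM in DBA, against 2.11 and 2.36 CPM in BL6. Its RNA overlapped between strains, with 50.2 and 31.5 CPM in DBA, against 29.4 and 59.3 CPM in BL6. In Fam13b the peak chr18:34511544-34512428 had 15.8 and 15.5 CPM in DBA, against 1.15 and 1.21 CPM in BL6, while its RNA had 133 and 138 CPM in DBA, against 120 and 123 CPM in BL6, and was not called (0.21 ± 0.09 SE; adjusted p = 0.301, edgeR).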
